A study of Mus musculus with 2 samples.

Results

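The 4 nuclear factor I genes, Nfia, Nfib, Nfic and Nfix, were examined in an open-chromatin map of mouse gastrocnemius, the large calf muscle. They are 4 of 21924 protein-coding gene symbols of the GENCODE annotation on mm10, and they were chosen by results of these same libraries, selected on the peaks and their signal at these loci. Peaks within 1 kb of any annotated start (promoter), elsewhere in the gene body, or outside it but within 50 kb of a start (distal) were assigned to each gene. Merging the peaks of both libraries gave 224 regions at these loci, of 103684 in the genome. Since peak signal chose the genes, their peak counts and levels are a description, and no test was made.

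DNase-seq maps the sites where the enzyme DNase I cuts nuclear DNA, which are mostly regulatory stretches free of nucleosomes. There was 1 group of 2 libraries, both from gastrocnemius of male B6CASTF1/J mice, the hybrid offspring of a C57BL/6J and a CAST/EiJ parent, aged 14 days. The labels name no treatment, transgene or second genotype. The labels number the libraries biological replicates 1 and 2. They read 3 males for each library, do not say whether tissue was pooled, and name the same donor entry for both. The spread between libraries may therefore be partly technical. Values are given in the order replicate 1, replicate 2.

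Nuclear factor I proteins bind DNA as dimers at a palindrome made of the half-site TTGGC, a spacer and its reverse complement GCCAA, and can also bind a single half-site more weakly. The family acts in many tissues, including brain, lung, tooth and muscle. In muscle, Nfix is known as a regulator of the switch from embryonic to fetal myogenesis and of regeneration, with Pax7 upstream of it. Nfia and Nfib are known in glial and lung development, and Nfic in tooth root formation.

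The deposited peak lists held 82498 and 88198 strict peaks and 138117 and 139545 permissive peaks, with 320456 and 384435 footprints, which are short protected stretches within cut regions. Peak signal, a deposited value without a stated scale, was higher in replicate 1, with a median ratio of 1.55 over the 63851 regions with a strict peak in both libraries. Promoters of muscle fibre markers were open in both libraries for 9 of 10 genes, including Ckm and Acta1, and not for Myh4. Among markers of other cells, 4 of 5 fibroblast, 4 of 5 endothelial, 5 of 5 smooth muscle and pericyte, 3 of 5 Schwann cell, 1 of 4 satellite cell, 1 of 5 leukocyte and 0 of 3 erythroid promoters were open in both. Of all protein-coding genes, 63.4% had a promoter peak in both, so these counts alone do not show which cell types were present. In whole tissue, a site open in fewer cells and a site less open in each cell cannot be told apart. The cell types behind the NFI peaks were not tested.

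The sequences below are strong shared regions that carry the description of each locus and lie at no other coding gene's start. They are the plus strand of the C57BL/6J reference, build GRCm38.p6 (mm10), so the CAST/EiJ allele of these hybrids is not shown. Capitals mark bases inside footprints of both libraries, and regions over 240 bases are shown in part.
Nfia promoter, chr4:97772141-97772380: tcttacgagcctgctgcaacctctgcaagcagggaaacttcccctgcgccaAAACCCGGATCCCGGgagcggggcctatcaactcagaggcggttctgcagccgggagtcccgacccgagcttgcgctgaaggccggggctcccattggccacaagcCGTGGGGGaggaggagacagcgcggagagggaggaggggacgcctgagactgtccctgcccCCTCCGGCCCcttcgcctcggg
Nfia intron 2, chr4:97868941-97869140: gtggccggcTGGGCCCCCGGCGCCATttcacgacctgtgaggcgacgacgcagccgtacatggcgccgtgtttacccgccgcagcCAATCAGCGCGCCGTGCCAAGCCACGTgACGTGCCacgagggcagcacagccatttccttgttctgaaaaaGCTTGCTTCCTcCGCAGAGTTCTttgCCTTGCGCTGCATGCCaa
Nfib upstream site, chr4:82513201-82513440: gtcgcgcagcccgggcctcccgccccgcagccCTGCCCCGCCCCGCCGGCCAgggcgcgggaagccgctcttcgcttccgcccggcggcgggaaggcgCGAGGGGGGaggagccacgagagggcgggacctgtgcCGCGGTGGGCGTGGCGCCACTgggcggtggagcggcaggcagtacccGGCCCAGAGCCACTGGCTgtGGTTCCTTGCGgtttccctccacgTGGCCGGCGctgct
Nfic upstream site, chr10:81432961-81433200: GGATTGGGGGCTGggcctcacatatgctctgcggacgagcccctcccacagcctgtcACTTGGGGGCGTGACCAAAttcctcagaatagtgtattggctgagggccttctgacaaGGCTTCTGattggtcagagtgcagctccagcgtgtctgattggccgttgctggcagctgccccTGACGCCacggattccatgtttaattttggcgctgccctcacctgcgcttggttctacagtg
Nfix intron 9, chr8:84709261-84709480: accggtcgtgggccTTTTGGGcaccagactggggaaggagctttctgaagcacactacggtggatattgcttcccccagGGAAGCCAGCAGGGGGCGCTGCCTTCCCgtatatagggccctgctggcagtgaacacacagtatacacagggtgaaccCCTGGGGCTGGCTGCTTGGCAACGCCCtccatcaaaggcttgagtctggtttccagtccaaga
The Nfia promoter stretch had 33 of 240 bases in footprints of both libraries, the Nfia intron 89 of 200, the Nfib upstream site 88 of 240, the Nfic upstream site 47 of 240 and the Nfix intron 62 of 220. The 3 half-sites of the Nfia intron were all of the GCCAA form. The half-site at positions 101 to 105 of that sequence, counted from its first base, lay wholly in capitals. The Nfix intron 9 sequence had 1 half-site, TTGGC at positions 173 to 177, also wholly in capitals. In the Nfic upstream site none of 3 half-sites touched a footprint shared by both libraries.

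All 4 genes had a promoter peak in both libraries in the strict lists, against 63.4% of protein-coding genes, and in the permissive lists, against 67.5%. Promoter signal, the strongest peak within 1 kb of any annotated start, was graded across the family. Nfia was highest at 19.5 and 5.95, followed by Nfib at 11.7 and 5.21, Nfix at 5.88 and 2.35 and Nfic at 5.29 and 3.21. As a percentile among all genes, averaged over the libraries, Nfia reached 92.7 ± 8.09 (SD, n = 2), Nfib 84.8 ± 3.77, Nfic 65.1 ± 0.768 and Nfix 62.6 ± 6.53. Nfia and Nfib were above Nfic and Nfix in both libraries. Nfia was also above Nfib within each library, with percentiles of 98.4 and 87.0 against 87.5 and 82.1, although their ranges over the libraries overlapped. The order of Nfic and Nfix turned between libraries. Within 1 kb of consensus coding starts alone, the order of the family was different. There Nfia had at most 1.93 and 1.50, Nfib 3.82 and 1.33, Nfic 3.67 and 1.62 and Nfix 5.88 and 2.35.

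**Figure D1:**
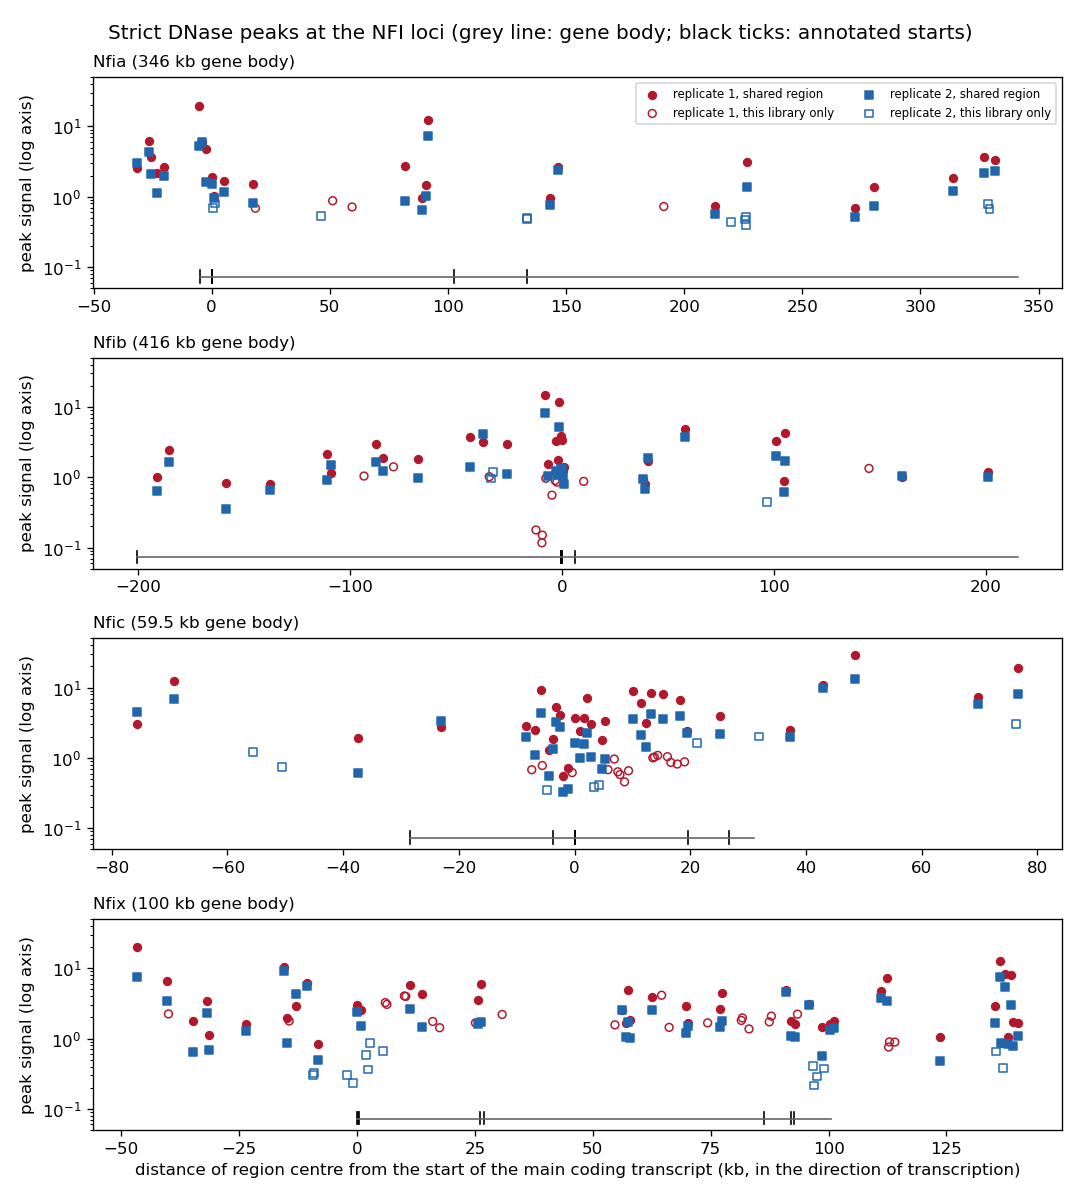
Peak signal (log axis) of each strict peak region against its distance in kb from the start of the main coding transcript, 1 panel per gene. Filled symbols are regions found in both libraries, open symbols regions of 1 library, circles replicate 1 and squares replicate 2. The grey line is the gene body and black ticks are annotated starts. The highest Nfia and Nfib points lie at or upstream of the main start and in an Nfia intron, while Nfic and Nfix have their highest points outside the gene.

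The annotated starts of each gene were not equally open. Nfia (ENSMUSG00000028565.18, chr4:97772734-98118874, plus strand) has 8 starts. Its strongest promoter region, chr4:97772141-97772440, had signals of 19.5 and 5.23 and lay 294 bases upstream of the start of Nfia-208, a coding transcript without a consensus coding sequence entry. A second region 527 bases downstream of that start had 5.93 and 5.95. The starts of the 2 consensus coding transcripts, Nfia-202 and Nfia-203, had at most 1.93 and 1.50 within 1 kb, so the highest promoter value of Nfia belonged to an alternative upstream start in both libraries. A second coding gene, E130114P18Rik, also has a start within 1 kb of the regions at Nfia-202. The Nfia-208 promoter region stood 2.41 times above the median ratio of the libraries, more than 2-fold, so replicate 1 carried a larger part of its level.

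At Nfib (ENSMUSG00000008575.17, chr4:82290173-82705750, minus strand) 5 promoter regions, all shared, clustered around 6 neighbouring starts. The strongest, chr4:82506401-82506620, had 11.7 and 5.21 and lay 622 bases upstream of the nearest start. The regions over the starts themselves were lower, at 3.82 and 1.32 and at 3.36 and 1.33. The most upstream start, that of Nfib-212 at the far end of the gene, had no peak in either list of either library. That of Nfib-211 had permissive peaks alone, 0.725 and 0.587.

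Nfic (ENSMUSG00000055053.18, chr10:81396186-81455635, minus strand) had 7 shared promoter regions, the most of the family. The highest, chr10:81430181-81430560, had 5.29 and 3.21 and lay 445 bases downstream of the Nfic-204 start. The region over the consensus coding starts of Nfic-203 and Nfic-201 had 3.67 and 1.62. A region over the internal start of Nfic-205, in intron 5 of the main transcript, reached 2.41 and 2.27. The starts of Nfic-207 and Nfic-206 had no peak in any list.

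Nfix (ENSMUSG00000001911.16, chr8:84699876-84800344, minus strand) was open at 2 separate groups of consensus coding starts. The outer one had 3.04 and 2.35. The inner one, chr8:84773899-84774120, had 5.88 and 1.72, a ratio 2.20 times above the median ratio. Which of these Nfix promoters was the higher therefore turned between libraries. At the outer region the lowest FDR in the deposited cut-rate track was 6.65e-08 in replicate 1 and 3.61e-137 in replicate 2. The signal there was higher in replicate 1 as deposited, but its ratio was 0.838 times the median ratio. Its percentiles among strict peaks were 79.8 and 82.5. The start of Nfix-206 had no peak in any list.

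All 4 loci held many more open regions than most genes. Shared regions numbered 25 at Nfia, 30 at Nfib, 33 at Nfic and 44 at Nfix, where the median protein-coding gene had 5 and the 99th percentile was 22. The genes differed in where these regions lay. Nfia had 4 promoter, 16 gene body and 5 distal regions. Nfib had 5 promoter and 25 gene body regions and no distal one, and its gene body spans the whole window around every start but that of Nfib-212. Most of those 25 regions lay outside the main transcript, in the stretch up to the Nfib-212 start, which had no peak. Nfic had 7, 18 and 8, and Nfix 6, 15 and 23.

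**Figure D2:**
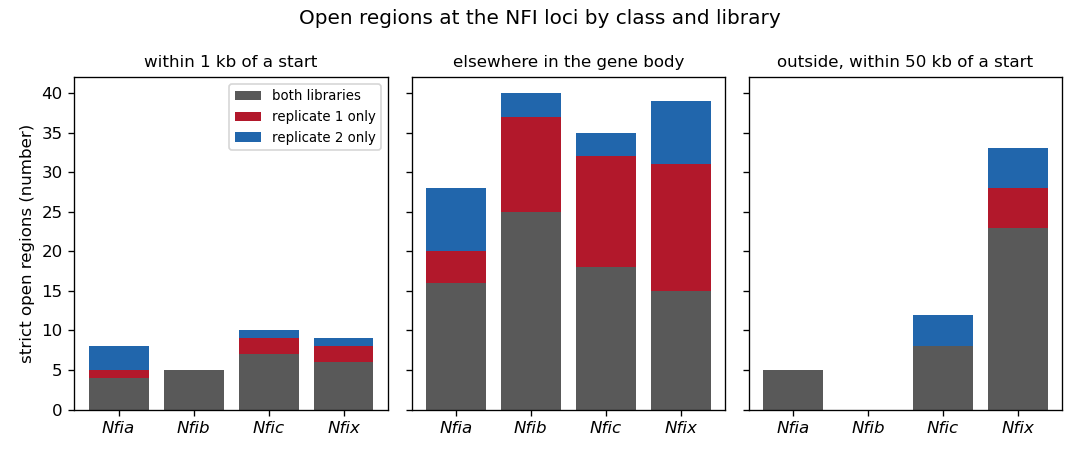
Number of strict open regions per gene within 1 kb of a start, elsewhere in the gene body and outside it within 50 kb of a start. Grey bars are regions of both libraries, red replicate 1 only and blue replicate 2 only. Nfib has no distal region and Nfix has 23 shared distal regions, the highest grey bar among distal ones.

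Per length of gene, the compact genes were denser. Nfic carried 30.3 shared gene body regions per 100 kb and Nfix 14.9, against 6.02 at Nfib and 4.62 at Nfia. The Nfix count includes 4 regions within 1 kb of another coding gene's start. Among protein-coding genes within 2-fold of each one's length, these counts stood at the percentile 99.99 for Nfic, 99.8 for Nfix, 99.0 for Nfib and 94.9 for Nfia. The median gene of like length had 1 shared gene body region for Nfic and Nfix, 5 for Nfib and 4.5 for Nfia. All 4 were thus in the upper part of their length class, Nfia least.

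Many of the distal regions at the compact genes sat at other genes. Of the distal shared regions, 6 of 8 at Nfic and 11 of 23 at Nfix were within 1 kb of the start of another coding gene. At Nfia none of 5 was. In gene bodies, 4 of 15 shared regions at Nfix were at such a start, and 0 at the other genes. The highest region of the Nfic locus, 28.7 and 13.3, lay at the start of Fzr1, an activator of the anaphase-promoting complex. The highest of the Nfix locus, 19.8 and 7.61, lay at the start of Calr, which encodes a chaperone of the endoplasmic reticulum. Without regions at other coding starts, an alternative added after these regions were seen, 109 of the 132 shared regions were left.

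The strongest gene body regions were mostly intronic or upstream of the main transcript. Of 74 shared gene body regions, 48 lay in introns of the main transcript and 0 in its exons. The strongest Nfia one was in intron 2, at chr4:97868941-97869140, with 12.3 and 7.21, which put it at percentiles 97.3 and 98.3 of all strict peaks of its library. It exceeded every Nfia promoter region in replicate 2. The strongest Nfib region, chr4:82513201-82513440, lay 7422 bases upstream of the nearest start, with 15.0 and 8.24, percentiles 98.6 and 99.1, above the Nfib promoter in both libraries. Further into Nfib, a region in intron 2 had 4.81 and 3.79 and one 36442 bases upstream of the nearest start had 3.22 and 4.09.

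At Nfic the top gene body region, chr10:81432961-81433200, lay 1956 bases upstream of the Nfic-204 start and had 9.25 and 4.41. It was followed by 3 regions in intron 2, with 8.33 and 4.28, 8.92 and 3.59, and 8.24 and 3.53. The last of these, chr10:81411621-81412340, spanned 720 bases and held 15 and 14 footprints. All 4 exceeded the highest Nfic promoter region in both libraries. Shared Nfic regions had the highest median percentile of the family, 83.5 and 81.1, and Nfib the lowest, 65.5 and 63.4.

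At Nfix the top gene body region by mean percentile was chr8:84709261-84709480 in intron 9, with 4.97 and 4.59, followed by one in intron 1 with 5.81 and 2.66. The strongest distal Nfix regions more than 1 kb from other coding starts were chr8:84663961-84664200, with 12.6 and 7.49, and chr8:84815641-84815840, with 10.3 and 9.20. The former lay at an annotated start of the noncoding gene Gm26664, next to a region within 1 kb of a start of the coding gene Ier2. The latter lay 15297 bases upstream of the outer start. Another, 10617 bases upstream, had 6.10 and 5.52. Each of these distal regions was above every Nfix promoter region in both libraries. At Nfia the strongest distal region, 21474 bases upstream, had 6.15 and 4.27.

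Ratios between the libraries stayed mostly near the series' median ratio. Of 132 shared regions, 124 (93.9%) had a ratio within 2-fold of the median ratio of the series, where 86.0% of all shared regions did. At 5 regions replicate 1 was more than 2-fold above that ratio, 3 of them at Nfic, and at 3 regions more than 2-fold below. Nfic regions were shifted as a group, with a median ratio 1.36 times that of the series, against 0.935 at Nfia, 1.04 at Nfib and 1.07 at Nfix. The share of merged regions found by both libraries was 58.9% at these loci and 61.6% in the series.

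**Figure D3:**
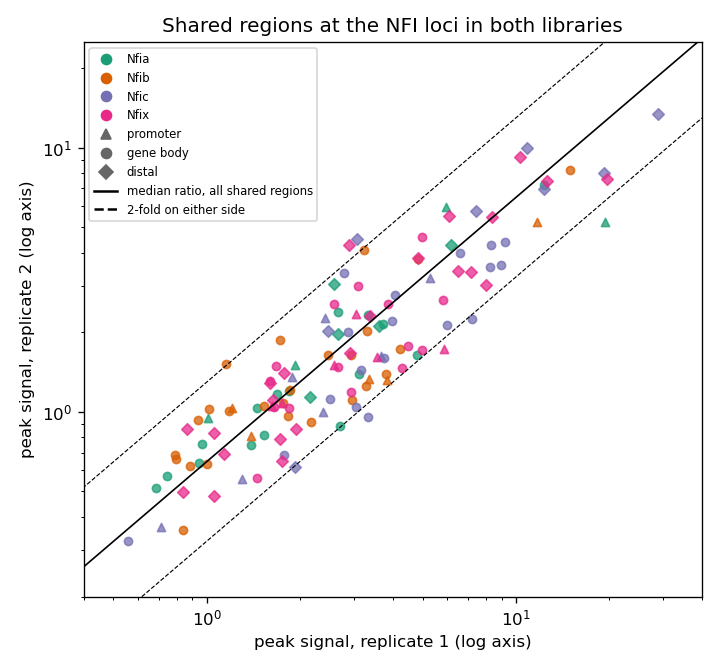
Peak signal of the 132 shared regions in replicate 1 (x) and replicate 2 (y), both on log axes, coloured by gene, with the symbol giving the class. The solid line is the median ratio over all shared regions of the series and the dashed lines lie 2-fold on either side. Most points, 124, lie between the dashed lines, and the Nfic points have a median ratio 1.36 times that of the line.

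Regions with a strict peak in 1 library numbered 56 for replicate 1 and 36 for replicate 2. A permissive peak of the other library overlapped 25 of the 56 and 20 of the 36. Matching shares over the series are not given here, so these counts describe the 4 loci alone. Regions of replicate 1 alone were 23 of 81 at Nfix, 16 of 57 at Nfic, 12 of 45 at Nfib and 5 of 41 at Nfia. Those at Nfix had the highest median signal, 1.78, against 0.725 at Nfia, 0.889 at Nfib and 0.800 at Nfic. The highest was in an intron, chr8:84735661-84735860, at 4.13, where replicate 2 had a permissive peak of 0.968. A pair of neighbouring regions at 4.04 and 3.98 had permissive peaks of 1.00 and 1.50. Of these 23 regions, 14 had a permissive peak in replicate 2. In the other direction, 5 of the 14 Nfix regions of replicate 2 alone had a permissive peak in replicate 1.

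Permissive peaks that overlapped no strict peak of the same library numbered 77 and 88. By class they were 9 and 9 at promoters, 57 and 65 in gene bodies and 11 and 14 distal. Their median signal was 0.557 and 0.546. The other library had a strict peak at 18 of 77 and 28 of 88, a permissive peak at 27 and 26, and none at 32 and 34. Footprints were called in 56 of 77 and 67 of 88. For these counts, too, no share over the series is given.

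The 18 promoter peaks of this kind had signals between 0.271 and 1.45, where the median strict peak of the series had 1.27 and 0.835. Nfia had 3 in each library. In replicate 1 they had 0.379, 0.669 and 0.580, and in replicate 2 0.702, 0.840 and 0.372. The Nfia peak of 0.580 lay over the start of the noncoding transcript Nfia-206, and overlapped a strict peak of 0.495 in replicate 2 that did not itself cover the start. Nfib had 1 in replicate 1, at 0.725, and 2 in replicate 2, at 0.587 and 0.546. Nfic had 0.741 and 0.463 in replicate 1 and 0.271 and 0.298 in replicate 2. Nfix had the highest, with 1.45, 1.10 and 1.39 in replicate 1 and 0.803 and 1.07 in replicate 2. The peak of 1.45 lay over the start of the noncoding transcript Nfix-208, where replicate 2 had no peak. No promoter peak of this kind was needed for a gene to count as open.

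The signal at which a peak entered the strict list differed between loci. Permissive-only peaks reached 1.45 and 1.50 at Nfix, 1.23 and 0.546 at Nfic, 0.831 and 0.807 at Nfib and 0.758 and 0.973 at Nfia. Strict peaks with far lower signals existed beside strong sites. Beside the strongest Nfib region, 8682, 8922 and 11736 bases upstream of the nearest start, replicate 1 had strict peaks of 0.151, 0.117 and 0.178, with lowest FDR values of 8.09e-06, 3.02e-05 and 1.69e-06. Replicate 2 had a strict peak of 0.234 at the outer Nfix promoter, with 7.83e-06. In the other direction, a permissive-only Nfix peak of 1.20 in replicate 2 held bases down to an FDR of 9.44e-12. Column 7 alone therefore did not separate the lists at these loci. Regions with a strict peak had lowest FDR values up to 0.00079 in that peak's library. Permissive-only peaks had medians of 0.0103 in replicate 1 and 0.00647 in replicate 2, and minima of 0.000443 and 9.44e-12.

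**Figure D4:**
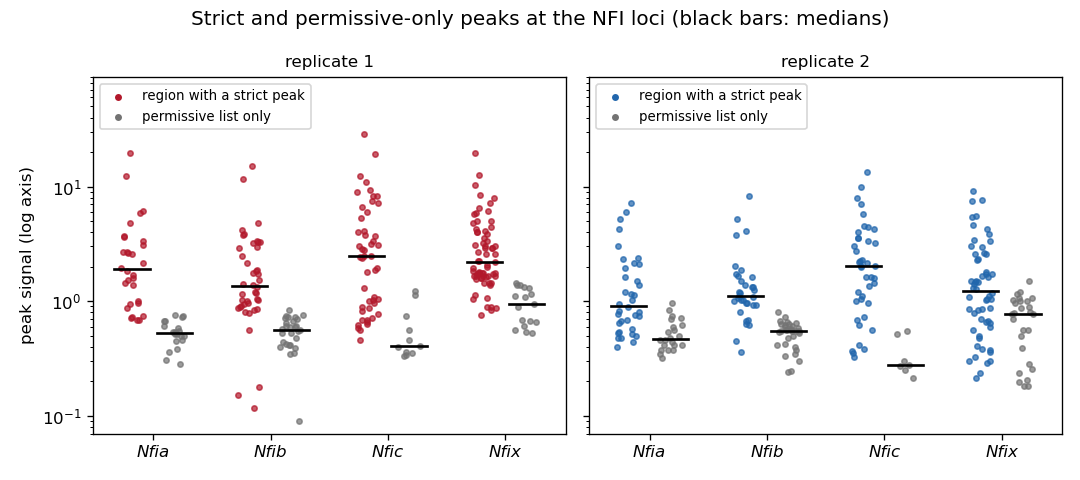
Peak signal (log axis) per gene of regions with a strict peak (coloured) and of peaks in the permissive list alone (grey), replicate 1 on the left and replicate 2 on the right, with black bars at the medians. Grey medians lie below the coloured ones at each gene, and the ranges overlap.

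Footprints were called at all 4 loci, 769 and 819 in all. Of these, 550 (71.5%) and 533 (65.1%) lay in strict peaks, 115 and 171 in peaks of the permissive list alone, and 104 and 115 in neither. Nfix had the most in both libraries, 274 and 244, followed by Nfic with 211 and 214, Nfib with 152 and 192 and Nfia with 132 and 169. Per 100 bases of shared region the density was 1.38 and 1.49, against 1.34 and 1.52 in the series. Promoter regions had 1.15 and 1.38, gene body regions 1.48 and 1.55 and distal regions 1.37 and 1.46. Footprints in shared regions of replicate 1 overlapped one of replicate 2 in 67.7% of cases, against 70.0% in the series, and the reverse was 63.7% against 61.2%. At Nfia the shares were lowest, 55.8% and 56.3%. Footprint density at these loci was therefore near the series' own.

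The motif bound by the NFI proteins themselves was searched in the open regions of their own genes. The palindrome of TTGGC, a 5-base spacer and GCCAA, with at most 1 mismatch, occurred in 1 of 132 shared regions (0.758%, Wilson 95% interval 0.134% to 4.17%, counting error only). The share among shared regions of the same width (bins of 40 bases) was 2.36%. The regions are neighbours at chosen genes and 1 match was found, so the interval does not decide between these shares. That 1 lay in a footprint of both libraries, in intron 2 of Nfix, in a region with signals of 2.59 and 2.56. It is shown because it is the one such match, with the half-site positions in capitals.
Nfix intron 2 site, chr8:84744176-84744210: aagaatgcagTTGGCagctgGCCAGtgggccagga
Its second half-site has the 1 mismatch, and the site also holds the E-box CAGCTG, which overlaps the first half-site and the spacer. With no mismatch the palindrome occurred in none of the 132 regions and in 0.102% of all shared regions. With at most 2 mismatches, 30 regions held it, 22.7% against 20.02% of same-width regions, and 23 of them in a footprint of both libraries, 17.4% against 13.7%.

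Single half-sites, TTGGC or GCCAA, were common. They occurred in 77 of 132 regions (58.3%), against 54.5% of same-width regions, and within footprints of both libraries in 34 (25.8%), against 22.6%. By gene these were 6 of 25 regions at Nfia, 8 of 30 at Nfib, 9 of 33 at Nfic and 11 of 44 at Nfix. Of the footprints in shared regions, 13.3% and 9.42% touched a half-site, against 11.02% and 9.25% in the series. These shares were close to the series' own.

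Letters of other muscle regulators were searched on both strands in the same way. The E-box CAGCTG of the MyoD family was in 28 regions (21.2%), against 27.4% of same-width regions. GGAATG, read by TEAD factors, was in 7 (5.30%, against 14.0%), 5 of them at Nfic. TGANTCA, read by AP-1, was in 9 (6.82%, against 9.07%), and TCAGGTT, the MEF3 letters of muscle promoters, in 7 (5.30%, against 2.88%). The MEF2 motif was in 1 region, at the strongest Nfic promoter, and in 0.907% of same-width regions. In footprints of both libraries, the E-box was in 5 regions (3.79%, against 5.87% of same-width regions). The TEAD, AP-1, MEF3 and MEF2 letters were in none, against 2.25%, 1.35%, 0.325% and 0.236%.

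A further pair of motifs were added after the sequences had been seen. The core of the CTCF motif was in 17 regions (12.9%, against 16.0%), 9 of them at Nfix, and in 12 within footprints of both libraries (9.09%, against 10.8%). It lay wholly in capitals in the Nfix intron 9 sequence, at positions 85 to 95. GGGCGG, the GC box of Sp factors, was in 49 regions (37.1%, against 33.7%). A match states only that the letters are there.

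Base composition differed in its medians between the classes, with overlapping ranges. Promoter regions, from 46.7% to 83.2% GC, had a median GC content of 63.5% and an observed to expected CpG ratio of 0.799, gene body regions, from 42.6% to 78.3%, had 55.3% and 0.277, and distal regions, from 45.9% to 73.6%, had 60.8% and 0.628. The distal class includes 6 regions at Nfic and 11 at Nfix within 1 kb of another coding gene's start, and its medians were not split by this. All shared regions of the series had 55.5% and 0.341. By gene the GC median was 62.7% at Nfic, 60.0% at Nfix, 54.1% at Nfia and 52.5% at Nfib.

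Genes named in the literature around NFI in muscle were listed by role, a list chosen with earlier results known. Of the upstream regulators, 6 of 7 had a promoter peak in both libraries, among them Rhoa, Rock1, Rock2, Mapk3 and Junb. Pax7, the satellite cell factor, had a peak of 1.47 in replicate 1 alone. All 3 partners were open in both, with Jund, an AP-1 subunit, at 19.0 and 9.36, Mef2a at 11.3 and 6.50 and the kinase gene Prkcq at 2.69 and 1.86. Of 6 downstream genes, Ckm, Eno3, Nfatc4 and Sox6 were open in both. Muscle creatine kinase gene Ckm had 12.1 and 4.14, and the enolase gene Eno3 4.63 and 2.87. The myostatin gene Mstn had 0.680 in replicate 1 alone and the slow myosin gene Myh7 had no promoter peak. Against a background of 63.4%, these counts do not stand far apart.

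Other transcription factor families of muscle gave fewer regions per gene. The MEF2 genes with Srf, 5 genes, had a median of 10 shared regions (6 to 17), the 4 TEAD genes 12.5 (7 to 25) and the NFI genes 31.5 (25 to 44). Tead1, at 25, equalled Nfia. The order was different for promoter signal, where the median percentile was 87.4 for MEF2 and Srf, 74.9 for NFI and 59.1 for TEAD. These families differ in gene length, and NFI genes were chosen with their regions known.

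Genes most like each member were those nearest in shared gene body and distal regions among protein-coding genes within 2-fold of its length. Nfia, with 21 such regions, was matched by Hdac4, Pdzd2 and Tead1 at 21. Nfib, with 25, was nearest to Maml3 at 25 and to Cacna1a and Ralgps1 at 24. Nfic, with 26, was nearest to Cuedc1 at 26, Aldh1l1 at 25 and Top2a at 24. Nfix, with 38, had no gene near it among 3994 of like length, the closest being Lrp1 at 30. Those 38 include 11 distal and 4 gene body regions at other coding starts.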

How the data were processed

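Deposited files of 2 DNase-seq libraries on mm10 were used: per library 2 peak lists, footprints and a cut-rate track. The peak signal is the authors' value in column 7 of their peak files, from each library's own alignment per the deposited description, with no stated scale. It was compared within a library or relative to the median ratio. The FDR (a q-value per base, up to 0.05) and the constant footprint value of 0.01, a p-value threshold, are as deposited. Depth, aligner and callers were not given in the sources used here.

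Strict and permissive are the shorter and longer list. Strict peaks of both libraries were merged at 1 base of overlap and classed promoter, then gene body, then distal. Genes came from GENCODE M21. RefSeq promoter windows were matched for 3 of the 4 genes (Nfia, Nfic and Nfix).

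Members, lists and motifs were chosen with earlier results of these data known. Text names all 4 members, the strongest shared region per class, up to 5 shared regions per locus and all permissive-only promoter peaks. Python 3.11.15 with numpy 2.4.6, pysam 0.24.0 and matplotlib 3.10.9 were used; region merging, classes and motif search were tested on simulated data (8 checks). No statistical test was made. Some items that these rules name are not reported here.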

Additional observations from a re-analysis of the deposited data

How the results depend on the processing

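All 4 genes had a promoter peak in both libraries under each of the 7 alternatives tried: the permissive lists, peaks at or above the median signal, promoter windows of 250 and 2500 bases, starts of coding transcripts alone, and each library alone. The count of 132 shared regions ran from 101 with peaks at or above the median signal to 197 with the permissive lists; it was 168 to 188 in a single library. The mean of 545 footprints per library in strict peaks, from 552 and 538, ran from 472 to 686. Those library counts differ slightly from the 550 and 533 given above. The 165 permissive peaks missed by the strict lists were 77 to 88 in single libraries, by construction, and 119 where neither library had a strict peak. The share of regions with an NFI palindrome in a footprint of both libraries, 0.758%, was 0% with no mismatch and 17.4% with at most 2, and 0.758% with either library alone; 1 region decides it. By gene, 5 counts moved by over 1.5 times: Nfix from 44 to 29 with a distal window of 20 kb and to 67 without replicate 2, Nfia from 25 to 43 and Nfib from 30 to 49 with the permissive lists, and Nfib to 19 with peaks at or above the median signal. No paired analysis was possible because there is 1 group. The sequencing depth behind a peak is unknown here, so a missing peak means that none was called.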

Other observations

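RefSeq on GRCm38.p6 places a start of Nfia at position 97581943 of chromosome 4, which is 190791 bases from the nearest GENCODE start. Within 1 kb of it neither library had a strict peak, and replicate 2 had a permissive peak of 0.330. Of 4 RefSeq starts of Nfix, the one at 84780082 had no peak in any list, and the one at 84775828 had strict peaks of up to 3.57 and 1.62. The RefSeq start of Nfic coincided with a GENCODE start.

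Half-sites were counted in the RefSeq windows of these starts, which run from 250 bases before to 50 after. The Nfia and Nfic windows held 0, and the 4 Nfix windows 0, 1, 1 and 2, where 46.7% of all 32851 windows held at least 1. The palindrome with at most 1 mismatch was in none of them and in 0.907% of all windows.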
